A study of Rattus norvegicus with 20 samples.

Results

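The injury response of dorsal root ganglia (DRG) in rats fed fish oil was followed in 7 libraries, 4 from rats with chronic constriction injury (FOD-CCI) and 3 from sham rats (FOD-CT), out of 20 libraries in the series. The members were taken by their labels as the left ganglia of the fish oil diet (FOD). All rats were wild-type female Sprague-Dawley. FOD-CCI rats had 4 loose chromic gut ligatures tied around the left sciatic nerve, and FOD-CT rats had the same nerve exposed with 0 ligatures. Both groups ate a diet in which fish oil replaced most of the soybean oil for 4 weeks before surgery, and the methods place the end of recovery 1 week after it, although the public description has the diets running on for longer. The age of the rats is not given in the labels. Each library stands for the ganglia of a rat, and the labels do not say how many ganglia went into it, so neurons whose axons run outside the tied nerve are included in an unknown share. The left ganglia of the soybean oil diet (SOD), 4 sham (SOD-CT) and 3 injured (SOD-CCI), entered the statistical model only to help estimate the spread between rats and for the comparison of the diets. Contralateral ganglia of 3 FOD-CCI rats are described at the end.

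A DRG holds the cell bodies of sensory neurons, wrapped by satellite glia, with axons ensheathed by Schwann cells and with resident macrophages between them. When the axon in the nerve is damaged, the neuron is known to switch on transcription factors such as Atf3 and Jun, growth genes and a new set of neuropeptides, and to lower many of its ion channels and neurofilaments. Macrophages gather around the cell bodies, with complement and MHC class II genes, which serve in opsonization and in antigen presentation. Long-chain omega-3 fatty acids are incorporated in membrane lipids and are precursors of lipid mediators.

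Before the injury response could be read, the libraries were checked for tissue other than DRG. FOD-CT replicate 1 and FOD-CCI replicate 1 carried spinal cord transcripts: the mean level of the spinal cord oligodendrocyte and astrocyte genes was 7.13 and 7.25 log2 CPM (counts relative to the scaled total of the library) in them and ran from −1.44 to 0.44 in the other 5, and 0 of these genes were at 0 counts in either. Spinal cord inhibitory neuron genes stood at 5.08 and 4.87 there and at −2.83 or lower in the others. Sensory neuron markers were present in all 7 libraries, from 8.92 to 10.02 log2 CPM. Skeletal muscle genes took 2.71% of the counts of FOD-CT replicate 2 and at most 0.0245% of those of any FOD-CCI library, all 5 that were tested were lower in FOD-CCI with 5 libraries (median −7.83), and their part in the other lower values was not tested. FOD-CCI replicate 2 had the most red cell RNA (2.45% of counts) and the highest level of neutrophil and marrow genes, 8.10 log2 CPM against 0.70 to 3.06 in the other 6. Fat cell genes were at −0.21 log2 CPM or lower and endothelial genes between 4.20 and 5.43. Totals lay between 22547190 and 54437581 counts over the 20 libraries. In FOD-CT and FOD-CCI, the only groups checked for this, no library repeated another of its group within sampling noise.

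**Figure D1:**
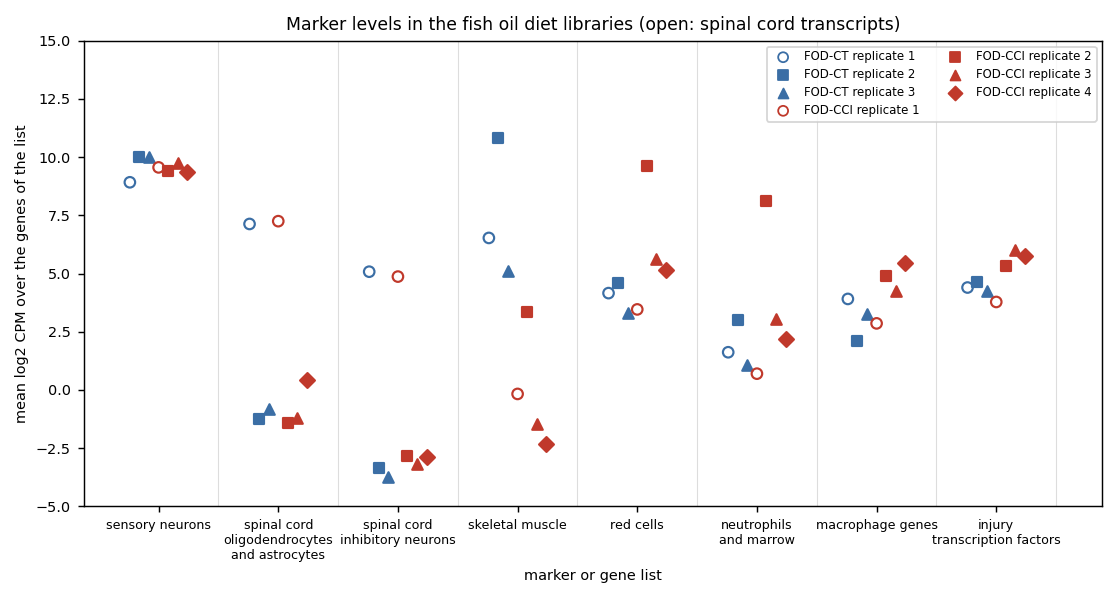
Mean log2 CPM over the genes of each marker or gene list (vertical axis) in the 3 FOD-CT (blue) and 4 FOD-CCI (red) libraries, with symbols for the replicate numbers and open circles for the libraries that carry spinal cord transcripts. Spinal cord genes are high in the open circles alone, red cell and neutrophil genes are highest in FOD-CCI replicate 2, and FOD-CCI replicate 1 is the lowest of the 7 for the injury transcription factors, at 3.78 against 5.33 to 6.01 in the other FOD-CCI libraries.

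FOD-CCI replicate 1 differed from its group in a further way. The mean level of the injury transcription factor genes was 3.78 log2 CPM in it, under the 4.27 to 4.64 of the 3 sham libraries, and the injury-induced neuropeptides stood at 1.02 against 1.33 to 2.87 in sham. Leaving out both spinal cord libraries therefore also removes the injured library that was lowest in these genes. For this reason every comparison was made with all 7 libraries and with 5, namely FOD-CT replicates 2 and 3 and FOD-CCI replicates 2 to 4. In bulk tissue, fewer cells of a type and less RNA per cell cannot be told apart.

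Across the whole table, edgeR's quasi-likelihood test called 0 of 14484 genes between FOD-CCI and FOD-CT with 7 libraries (0% of genes called), where a call required a p of 0.1 or less after Benjamini-Hochberg adjustment and a 1.2-fold or larger change. At an unadjusted p under 0.05 there were 654 genes (4.52%), 464 higher (3.2%) and 190 lower (1.31%), where chance would give 724. With 5 libraries it again called 0 of 14688 genes (0%), the smallest adjusted p being 0.15, and 1180 genes had an unadjusted p under 0.05 (8.03%), 712 higher (4.85%) and 468 lower (3.19%). The count turned on the spread estimate that all left groups share. When SOD-CT replicate 1, in which muscle genes took 11.9% of counts, was left out as well, the common biological coefficient of variation was 0.35 instead of 0.43 and 526 of 15177 genes were called, 288 higher and 238 lower (3.47%, 1.9% and 1.57%). DESeq2's Wald test called 21 genes with 7 libraries (0.145%) and 426 with 5 (2.9%), and 311 of the 426 were among the 526. Below, values are first those of the 5 libraries with their SE, and "called" refers to the fit without SOD-CT replicate 1, whose adjusted p is given as the 11-library one. That fit is an alternative to both comparisons above, so its calls stand beside their 0 calls. When a further library was left out of the 5-library comparison, leaving out SOD-CT replicate 1 gave the most calls. The next count was 89, without FOD-CCI replicate 2. Using the fit without SOD-CT replicate 1 to define a call was not planned and was settled with the counts known. With the replicate number as a block, edgeR called 1 of the 15177 genes in these 11 libraries (0.00659%; Fam150b, named after its value was seen, adjusted p = 0.0769) and 1626 had an unadjusted p under 0.05, so the call of every gene described below was lost under the block.

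**Figure D2:**
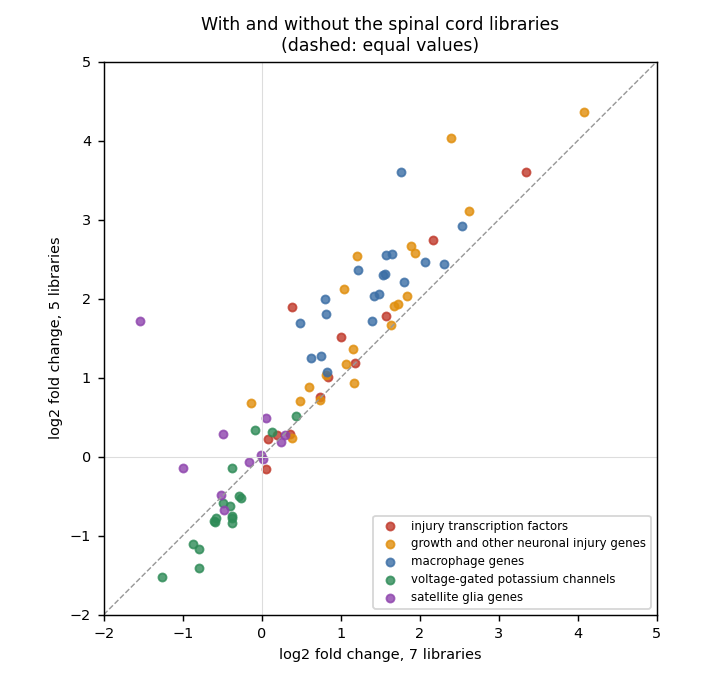
Log2 fold change (FOD-CCI minus FOD-CT) of list members with 7 libraries (horizontal axis) and with 5 libraries (vertical axis), colored by list, with a dashed line where both are equal. Most injury, growth and macrophage genes lie above the line, and the satellite glia gene at the far left is Gfap, at −1.54 with 7 libraries and 1.72 with 5.

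The injury transcription factors were the first group examined. Of 12 tested, 11 were higher in FOD-CCI with 5 libraries and 12 with 7 (median log2 change 1.10 and 0.79, where the median of all genes was 0.02 and 0.01). A total of 7 had an unadjusted p under 0.05 on the higher side, where 4.85% of all genes did, and 5 were called higher (Atf3, Jun, Smad1, Klf6 and Egr1). Atf3, the stress-induced factor that marks axotomized neurons, read 19.6, 42.3 and 13.7 CPM in FOD-CT replicates 1 to 3 and 3.24, 205, 502 and 331 CPM in FOD-CCI replicates 1 to 4. The 3 higher injured libraries lay well above every sham library, and FOD-CCI replicate 1 lay below them all. The change was 3.61 ± 0.70 on the log2 scale (edgeR adjusted p = 0.15, 11-library adjusted p = 0.0308), and 3.35 ± 1.04 with 7 libraries. Jun, an AP-1 subunit needed for axon regrowth, stood at 88.5, 125 and 85.8 CPM in sham and at 100, 207, 491 and 396 CPM after injury, a change of 1.78 ± 0.36 (edgeR 11-library adjusted p = 0.0308). Smad1, which carries bone morphogenetic protein signals, changed by 1.51 ± 0.29 (edgeR 11-library adjusted p = 0.0311). Sox11, a developmental factor, was 4.54 CPM in FOD-CCI replicate 2 but 45.6 and 29.1 CPM in replicates 3 and 4, against 2.72 to 5.41 CPM in sham, and was not called (difference 2.74 ± 1.27). Stat3, a cytokine-activated factor, differed by 0.29 ± 0.30 and its groups overlapped.

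Neuropeptides that injury is known to induce followed the same libraries. All 7 that could be tested were higher with 5 libraries and with 7 (medians 2.85 and 2.48), their groups did not overlap in the 5 libraries (15.4% of all genes were likewise entirely higher in FOD-CCI), and 3 were called higher (Adcyap1, Cck and Npy). Npy, which encodes neuropeptide Y, read 38.3, 34.2 and 1.45 CPM in sham and 5.16, 247, 741 and 475 CPM after injury, a change of 4.75 ± 1.89 (edgeR adjusted p = 0.527, 11-library adjusted p = 0.0901). The sham libraries themselves were far apart for this gene. Gal (galanin) stood at 17.2, 57 and 12.1 CPM in sham and at 8.55, 90.6, 384 and 281 CPM after injury, and its difference of 2.85 ± 1.01 was not called (edgeR 11-library adjusted p = 0.108). Vip, the vasoactive intestinal peptide, was 7.76, 24.6 and 3.85 CPM in sham and 1.47, 27.0, 134 and 109 CPM after injury, so that FOD-CCI replicate 2 barely exceeded FOD-CT replicate 2. Adcyap1, the precursor of PACAP, changed by 2.20 ± 0.57 (edgeR adjusted p = 0.255, 11-library adjusted p = 0.0204), from 29.4, 41.8 and 36.6 CPM to 18.2, 98.0, 223 and 225 CPM. Cck (cholecystokinin), also a spinal cord transcript, stood near 50 CPM in both cord libraries, 47.2 in sham and 53.5 after injury, and at 4.07 and 3.13 against 9.63, 35.1 and 36.3 CPM in the rest. The difference was 0.88 ± 0.77 with 7 libraries and 2.89 ± 0.57 with 5 (edgeR 11-library adjusted p = 0.0289). Ucn (urocortin), the other member with a small p, differed by 3.08 ± 1.03 and was not called. In contrast, of the 7 genes listed for uninjured nociceptors, which are peptide genes and the receptor gene Mrgprd, 2 were higher with 5 libraries and 5 lower, with 0 called. Calca, which encodes CGRP, was 1270 and 1060 CPM in FOD-CT replicates 2 and 3 and 1440, 616 and 751 CPM in the injured ones (difference −0.32 ± 0.36), and Tac1, the substance P precursor, differed by 0.25 ± 0.36. Nmb (neuromedin B) read −1.31 ± 0.47 and the itch receptor gene Mrgprd −1.22 ± 0.58, neither of them called.

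Growth and other neuronal injury genes were next. All 21 tested were higher with 5 libraries (median 1.67) and 19 of 20 with 7 (median 1.19), 13 had an unadjusted p under 0.05, and 11 were called higher. Of all genes, 4.85% had such a p on the higher side and 1.9% were called higher. Gap43, the growth cone protein, read 168, 243 and 168 CPM in sham and 158, 452, 1050 and 830 CPM after injury, a change of 1.91 ± 0.42 (edgeR 11-library adjusted p = 0.0315). Csf1, the macrophage growth factor that injured neurons release, read 36.5, 19.0 and 14.6 CPM in sham and 24.0, 56.4, 153 and 116 CPM after injury, a change of 2.67 ± 0.55 (edgeR 11-library adjusted p = 0.0134). Gadd45a, a growth arrest and DNA damage gene, changed by 2.04 ± 0.43 (edgeR 11-library adjusted p = 0.0337) and was also called by DESeq2 with all 7 libraries (adjusted p = 0.0625), as was the adhesion gene Flrt3, which changed by 3.11 ± 0.68 (DESeq2 adjusted p = 0.0625). The arginase gene Arg1, linked to axon growth and to alternatively activated macrophages, read 7.70, 1.77 and 0.993 CPM in sham and 5.53, 14.2, 29.9 and 24.7 CPM after injury. Its change of 4.04 ± 1.02 had the smallest 11-library adjusted p of the table, 0.00995, which it shared with 3 other genes, Spr among them. Stmn4, of the stathmin family, stood at 127 and 147 CPM in the cord libraries and differed by 1.21 ± 0.60 with 7 libraries and 2.54 ± 0.55 with 5 (edgeR 11-library adjusted p = 0.0308). Bdnf, the neurotrophin, was nearly level in 3 injured libraries at 77.7, 83.2 and 79.6 CPM, while FOD-CCI replicate 1 stood at 12.0 CPM and sham at 10.2, 32.4 and 17.6 CPM (change 1.67 ± 0.40, edgeR 11-library adjusted p = 0.0312). The secreted peptide precursor Vgf was higher in every injured library than in every sham library even with all 7 (30.4 to 83.2 against 121 to 334 CPM), as were 2.66% of all genes, and was called (edgeR 11-library adjusted p = 0.0311). Cacna2d1, which encodes the calcium channel subunit bound by gabapentin, changed by 1.93 ± 0.60 (edgeR 11-library adjusted p = 0.0847). Ankrd1, a muscle and stress gene, was at 12.3, 50.7 and 32.6 CPM in FOD-CCI replicates 2 to 4 and at 1.93 CPM or lower in the other 4 libraries (edgeR 11-library adjusted p = 0.0779).

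**Figure D3:**
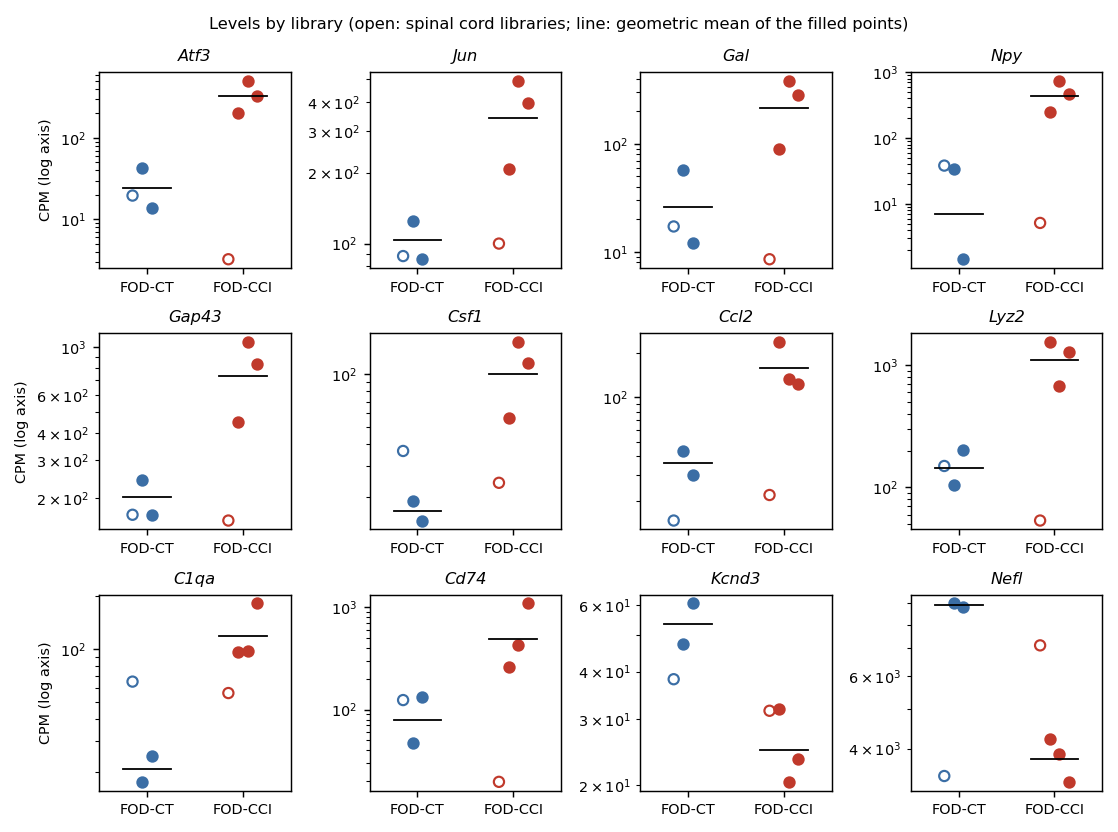
CPM on a log axis in each library for 12 genes, with FOD-CT in blue, FOD-CCI in red, open circles for the libraries with spinal cord transcripts and a line at the geometric mean of the filled points. For Atf3, Jun, Gal, Npy, Gap43, Csf1, Ccl2, Lyz2, C1qa and Cd74 the filled red points lie above the filled blue ones, for Kcnd3 and Nefl below them, and the open red circle lies among or below the sham points in every panel.

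Injury genes that few counts kept out of the test showed the same libraries at the top. Sprr1a, a cornified envelope gene known for axon outgrowth, had 18, 59 and 0 counts in FOD-CT replicates 1 to 3 and 0, 129, 1136 and 607 counts in FOD-CCI replicates 1 to 4. Reg3b, a secreted lectin, had 30, 0 and 32 counts in sham and 14, 572, 605 and 450 counts after injury. Il6 had 0, 52 and 0 counts in sham and 0, 130, 386 and 233 counts after injury. For all 3, FOD-CCI replicate 1 lay within or below the sham values and the other injured libraries lay above them.

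Promoters of 6 genes are shown, picked by hand from those with an entry in the RefSeq promoter table (build GRCr8) and with matching letters. These letters are ones that ATF and AP-1 factors, such as Atf3 and Jun, are known to bind. Other genes named below hold them too and are not shown, and Cd63 is outside the lists that were searched. The table gave an entry for 8 of the 12 injury transcription factors, 7 of the 9 listed neuropeptides and 16 of the 24 growth genes, and the 150 bases before the start were searched on both strands for TGACG, the core of cAMP response elements, and for TGANTCA, the AP-1 element. By their letters, TGACG and TGANTCA cannot share a base on either strand, so they overlapped in no promoter. TGACG was found in 13.4% of all 33469 promoters and TGANTCA in 3.69%. Of the 7 neuropeptide promoters 4 held TGACG (Gal, Grp, Ucn and Vip), as did 3 of the 8 transcription factor promoters (Egr1, Smad1 and Xbp1) and 4 of the 23 promoters of 16 growth genes. TGANTCA was in 2 growth gene promoters (Plaur and Sprr1a) and in 0 of the other lists. A match describes letters and shows no binding, and its absence says only that they are not in this window. In each line, capitals mark the motif on either strand. Gal lies at chr1:210084573-210084722 on the minus strand, Vip at chr1:44470330-44470479 on the plus strand, Gadd45a at chr4:97486800-97486949 on the minus strand, Smad1 at chr19:45417392-45417541 on the plus strand, Sprr1a at chr2:180752626-180752775 on the minus strand and Cd63 at chr7:1921994-1922143 on the plus strand.
Gal: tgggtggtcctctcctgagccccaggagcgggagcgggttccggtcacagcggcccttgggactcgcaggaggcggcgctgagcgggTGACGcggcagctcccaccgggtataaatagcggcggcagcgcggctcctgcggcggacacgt
Vip: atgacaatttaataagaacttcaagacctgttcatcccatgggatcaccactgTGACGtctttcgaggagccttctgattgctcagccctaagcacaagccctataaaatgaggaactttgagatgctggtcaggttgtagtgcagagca
Gadd45a: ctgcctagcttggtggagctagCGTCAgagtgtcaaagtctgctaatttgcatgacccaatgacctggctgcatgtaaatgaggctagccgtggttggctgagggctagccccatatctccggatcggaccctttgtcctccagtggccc
Smad1: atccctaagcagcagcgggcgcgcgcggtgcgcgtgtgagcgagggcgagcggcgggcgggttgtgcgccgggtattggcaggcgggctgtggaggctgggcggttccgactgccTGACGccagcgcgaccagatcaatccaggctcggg
Sprr1a: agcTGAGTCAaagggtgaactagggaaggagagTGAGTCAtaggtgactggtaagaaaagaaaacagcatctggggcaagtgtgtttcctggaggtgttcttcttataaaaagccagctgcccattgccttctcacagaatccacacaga
Cd63: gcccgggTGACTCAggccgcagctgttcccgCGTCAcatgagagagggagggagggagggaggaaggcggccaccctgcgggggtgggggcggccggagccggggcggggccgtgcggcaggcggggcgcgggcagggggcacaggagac

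The TGACG letters began 63 bases before the start in Gal, 97 in Vip, 128 in Gadd45a and 35 in Smad1, and the AP-1 letters began 147 and 117 bases before it in Sprr1a. Cd63, which encodes a tetraspanin of late endosomes and exosomes and was among the 10 higher genes with the smallest p, holds both motifs. It read 228, 239 and 222 CPM in sham and 256, 466, 470 and 586 CPM after injury, with every injured library above every sham library (change 1.13 ± 0.21, edgeR 11-library adjusted p = 0.0187).

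Macrophage genes lay on the higher side throughout. All 19 tested had a positive change with 5 libraries (median 2.21) and with 7 (median 1.48), 14 had an unadjusted p under 0.05, and 10 were called higher. The shares of all genes were 4.85% for such a p on the higher side and 1.9% for a higher call. Lyz2, the lysozyme of myeloid cells, read 150, 105 and 201 CPM in sham and 53.6, 1550, 684 and 1280 CPM after injury, a change of 2.92 ± 0.62 (edgeR 11-library adjusted p = 0.0164). The complement component C1qa read 65.4, 17.6 and 24.8 CPM in sham and 56.3, 95.9, 97.5 and 182 CPM after injury, a change of 2.55 ± 0.50 (edgeR 11-library adjusted p = 0.0133), with both cord libraries between the other sham and the other injured ones. The signaling adaptor Tyrobp changed by 2.56 ± 0.49 and the integrin Itgam by 3.60 ± 0.85 (edgeR 11-library adjusted p = 0.0312 and 0.0311). Ctss, a lysosomal protease, stood at 139 and 120 CPM in the cord libraries against 24 and 32 CPM in the other sham ones, and differed by 0.80 ± 0.65 with 7 libraries and 1.99 ± 0.69 with 5 (edgeR 11-library adjusted p = 0.0239). FOD-CCI replicate 2, with its red cell and neutrophil RNA, was the highest of the 7 for Lyz2 and Tyrobp but not for C1qa. It was also the highest FOD-CCI library for Itgam, at 19.1 CPM against 6.67 to 17.1 CPM in the others. Without FOD-CCI replicate 2 the median of the macrophage list was 2.09, with 19 of 19 higher.

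Complement, MHC class II and cytokine genes lay on the same side. Of 17 complement components 15 were higher with 5 libraries (median 1.32, with 7 at an unadjusted p under 0.05) and 4 were called higher, C3, Cfp and C2 among them. For this and the next lists, 4.85% of all genes had such a p on the higher side and 1.9% were called higher. C3, the central component, read 37.5, 1.84 and 8.56 CPM in sham and 38.2, 86.6, 32.2 and 31.4 CPM after injury, a difference of 3.26 ± 0.91 with 5 libraries (edgeR adjusted p = 0.289, 11-library adjusted p = 0.053) and of 1.55 ± 0.82 with 7. Cfp (properdin), a neutrophil and monocyte product, was 66.2 CPM in FOD-CCI replicate 2 and 7.18 and 34.4 CPM in replicates 3 and 4, against 1.96 to 4.01 CPM in sham. Neither C6, a membrane attack complex component at 0.573 CPM or lower in sham (difference 4.30 ± 1.37), nor the complement inhibitor gene Cd55 (difference −0.21 ± 0.40) was called. The 3 tested MHC class II genes (RT1-Da, RT1-Db1 and the invariant chain Cd74) were higher by a median of 3.03, and all 3 were called, as were 3 of the 4 that passed the filter in the 11 libraries. Cd74 read 124, 46.9 and 132 CPM in sham and 19.7, 260, 426 and 1090 CPM after injury, with FOD-CCI replicate 1 the lowest of the 7. Of 15 chemokine and cytokine genes 14 were higher (median 1.45), and 5 were called, namely Ccl2, Socs3, Il1rn, Cxcl16 and Il6r. Ccl2, which attracts monocytes, read 14.8, 43.7 and 29.9 CPM in sham and 22.0, 236, 134 and 123 CPM after injury, a change of 2.15 ± 0.38 (edgeR adjusted p = 0.15, 11-library adjusted p = 0.0239). Socs3, the feedback inhibitor of Stat3 signaling, changed by 3.10 ± 0.53 (edgeR 11-library adjusted p = 0.0178), and Il1rn, the interleukin-1 receptor antagonist, by 3.00 ± 0.67 (edgeR 11-library adjusted p = 0.053). The interferon-induced chemokine Cxcl10 was the exception, at −0.99 ± 0.55. Over these lists the red cell genes ran from 0.0406% to 0.104% of counts in sham and from 0.0615% to 2.45% after injury, and the part of blood in the immune values was not tested, beyond the medians without FOD-CCI replicate 2, which were 1.40 for complement, 3.41 for MHC class II and 1.18 for chemokines.

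Matrix genes and proliferation genes showed less even patterns. Of all genes, 4.85% had an unadjusted p under 0.05 on the higher side and 1.9% were called higher. Of 25 extracellular matrix and fibroblast genes 24 were higher with 5 libraries (median 0.68), but 2 had an unadjusted p under 0.05 and both were called. These were Timp1, the metalloproteinase inhibitor, at 35.8, 67.2 and 57.8 CPM in sham and 30.9, 126, 140 and 176 CPM after injury (change 1.22 ± 0.29, edgeR 11-library adjusted p = 0.043), and Ssc5d, a soluble scavenger receptor, at 8.76, 16.5 and 11.1 CPM in sham and 16.8, 21.7, 78.5 and 50.6 CPM after injury (change 1.85 ± 0.57, edgeR 11-library adjusted p = 0.0942). The collagen gene Col1a1 differed by 0.68 ± 0.53 and the gelatinase gene Mmp2 by 0.92 ± 0.50, both with the highest value in FOD-CCI replicate 4. Of 17 proliferation genes 16 were higher (median 1.52), with 4 at an unadjusted p under 0.05 and 0 called. The mitosis marker Mki67 was 68.7 CPM in FOD-CCI replicate 2, 5.67 and 8.07 CPM in replicates 3 and 4, and 1.30 to 3.38 CPM in sham. Top2a, Rrm2 and Mcm3, which act in DNA replication and chromosome handling, were likewise highest in that library, at 54.7, 30.9 and 21.2 CPM against 12.2, 3.36 and 6.10 CPM or lower in the other injured ones. Without FOD-CCI replicate 2, the library with the most marrow transcripts, the median of the proliferation list was 0.56 instead of 1.52, with 13 of 17 higher.

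**Figure D4:**
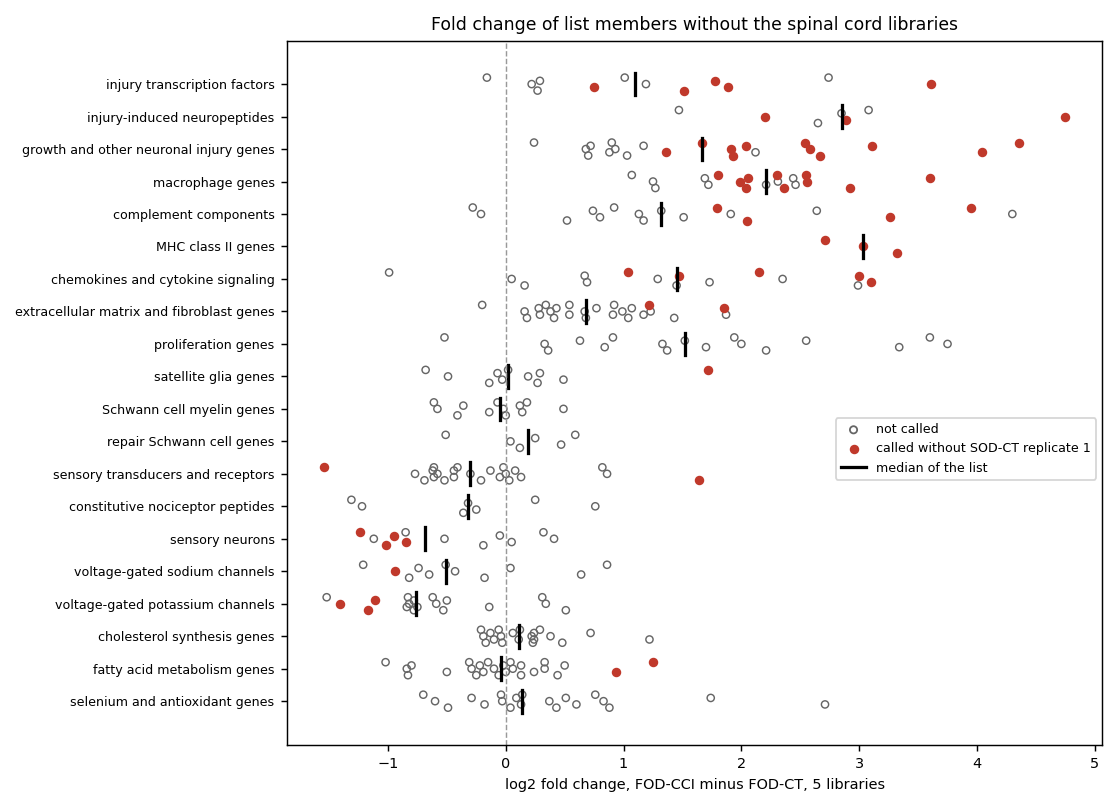
Log2 fold change, FOD-CCI minus FOD-CT with 5 libraries (horizontal axis), of the tested members of 20 gene lists, with filled points for genes called when SOD-CT replicate 1 was left out as well and bars at each list's median. Injury, growth, macrophage, MHC class II and chemokine lists have medians from 1.10 to 3.03, potassium channels, sensory neuron markers and sodium channels have medians of −0.77, −0.69 and −0.51, and the glia and lipid lists lie near 0.

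Channel genes lay on the lower side. Of 18 voltage-gated potassium channel genes 15 were lower with 5 libraries (median −0.77), 12 had groups that did not overlap (13.7% of all genes were likewise entirely lower), and 3 were called lower (1.57% of all genes were). Kcnd3, which carries A-type current, read 38.2, 47.4 and 60.7 CPM in sham and 31.5, 31.9, 20.4 and 23.5 CPM after injury, lower in every injured library than in every sham library with all 7 (as were 2.09% of all genes), a change of −1.11 ± 0.25 (edgeR adjusted p = 0.211, 11-library adjusted p = 0.0422). Kcns3 and Kcns1, modulatory subunits without current of their own, changed by −1.41 ± 0.35 and −1.17 ± 0.59 (edgeR 11-library adjusted p = 0.0586 and 0.0416), and Kcnv1, another such subunit, differed by −0.82 ± 0.29 without a call. Of 11 sodium channel genes 8 were lower (median −0.51), with 1 called lower. That was Scn1a, an alpha subunit of large neurons, at 162 and 158 CPM in FOD-CT replicates 2 and 3 against 99.8, 84.2 and 67.3 CPM in FOD-CCI replicates 2 to 4, with both cord libraries above these sham values at 192 and 297 CPM (change −0.94 ± 0.39, edgeR 11-library adjusted p = 0.0389). The nociceptor channel Scn10a read 45.7, 213 and 278 CPM in sham and 68.6, 168, 129 and 123 CPM after injury and was not called (difference −0.82 ± 0.40, edgeR 11-library adjusted p = 0.222). Scn9a differed by −0.43 ± 0.28, and the beta subunit Scn3b by 0.86 ± 0.38, neither called.

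Sensory transducers and receptors went both ways. Of 23 tested, 6 were higher and 17 lower (median −0.30). Gfra1, the GDNF co-receptor, was called higher, from 90.3, 123 and 143 CPM in sham to 107, 247, 524 and 475 CPM after injury (change 1.64 ± 0.34, edgeR 11-library adjusted p = 0.0233). Htr3a, a subunit of the serotonin-gated channel, was called lower, at 109 and 125 CPM in FOD-CT replicates 2 and 3 and 57.5, 33.0 and 31.6 CPM in FOD-CCI replicates 2 to 4, with the cord libraries at 31.6 and 49.9 CPM (change −1.54 ± 0.34, edgeR 11-library adjusted p = 0.0389). The touch channel Piezo2 read 58.7, 160 and 243 CPM in sham and 64.6, 120, 135 and 122 CPM after injury (difference −0.69 ± 0.40), with its 5-library groups apart but no call. Trpa1, the irritant channel, differed by 0.08 ± 0.53, Trpv1, the capsaicin receptor, by −0.30 ± 0.46 and the cannabinoid receptor gene Cnr1 by −0.77 ± 0.40. Oprm1, the mu opioid receptor, was near the limit of detection at 0 to 3.23 CPM in all 7 libraries, and its value of −0.61 ± 1.24 carries little information.

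Markers of sensory neurons were lower in part. Of 12 tested, 9 were lower with 5 libraries (median −0.69) and 4 were called lower, the neurofilament genes Nefl, Nefm and Nefh and the synaptic gene Snap25. Nefl read 3430, 9000 and 8840 CPM in sham and 7120, 4210, 3870 and 3320 CPM after injury, a change of −1.24 ± 0.31 (edgeR adjusted p = 0.228, 11-library adjusted p = 0.0164). FOD-CT replicate 1, the sham library with spinal cord RNA, was lower than 3 of the 4 injured ones, and with 7 libraries the difference was −0.62. Nefm, Nefh and Snap25 changed by −1.02 ± 0.35, −0.95 ± 0.40 and −0.85 ± 0.27 (edgeR 11-library adjusted p = 0.0442, 0.0564 and 0.094). Tubb3, Prph, Uchl1 and Thy1, also neuronal and chosen after their values were seen, stood at 0.41, 0.32, 0.05 and −0.05 on the log2 scale.

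Glia showed few differences that could be resolved. Of 12 Schwann cell myelin genes 5 were higher and 7 lower (median −0.05), with 0 called and 0 at an unadjusted p under 0.05. Pmp22, a membrane protein of peripheral myelin, differed by −0.61 ± 0.43 and was not called. Repair Schwann cell genes had a median of 0.18 over the 6 that could be tested, with Shh at 0.59 ± 0.38, Ngfr at −0.51 ± 0.42 and Ncam1 at 0.47 ± 0.47. Satellite glia genes had a median of 0.02 over 11, with Fabp7 at −0.49 ± 0.35. Gfap, which satellite glia switch on after nerve injury, was called higher, from 23.9 and 15.2 CPM in FOD-CT replicates 2 and 3 to 66.7, 65.0 and 63.1 CPM in FOD-CCI replicates 2 to 4 (change 1.72 ± 0.42, edgeR 11-library adjusted p = 0.0632). It is also the main astrocyte gene and stood at 1070 and 318 CPM in the cord libraries, and its sign was the opposite with all 7 libraries (−1.54 ± 1.06). Sparcl1, another astrocyte gene, was at 2760 and 2670 CPM in the cord libraries, and differed by −0.68 ± 0.31 without them.

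Lipid genes were mostly near 0 between injured and sham. Of 26 fatty acid metabolism genes 12 were higher and 14 lower (median −0.04), with 2 called higher (1.9% of all genes were). Fabp5, a fatty acid carrier, read 126, 292 and 258 CPM in sham and 212, 516, 746 and 714 CPM after injury (change 1.25 ± 0.36, edgeR adjusted p = 0.32, 11-library adjusted p = 0.0389). Acsl4, which activates arachidonic acid for phospholipids, read 70.4, 85.4 and 67.1 CPM in sham and 53.3, 128, 174 and 140 CPM after injury (change 0.94 ± 0.32, edgeR 11-library adjusted p = 0.0604). Plin2, which coats lipid droplets, differed by 0.50 ± 0.25. Acsl6, which activates docosahexaenoic acid in neurons, was outside the lists but among the 10 lower genes with the smallest p, at 162, 136 and 146 CPM in sham and 189, 62.5, 53.2 and 51.6 CPM after injury (change −1.35 ± 0.22, edgeR 11-library adjusted p = 0.0164). Of 20 cholesterol synthesis genes 12 were higher (median 0.12), with 0 called and with Mvd, of the mevalonate pathway, at 0.48 ± 0.20 and Mvk at 0.38 ± 0.24. The 8 phospholipid and lipase genes that the study singles out had a median of −0.18, from −0.45 to 0.40, with 0 called and 0 at an unadjusted p under 0.05.

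Selenium and antioxidant genes, a list that includes a few the study names from these samples, had 13 of 20 higher (median 0.14) and 0 called. The selenoenzyme Gpx1 read 94.2, 136 and 103 CPM in sham and 101, 379, 109 and 153 CPM after injury, with FOD-CCI replicate 2 far above the rest (difference 0.83 ± 0.67). Gpx4, which reduces lipid peroxides, read 487, 884 and 834 CPM in sham and 871, 1320, 678 and 776 CPM after injury, with overlapping groups and a difference of 0.09 ± 0.41. For the difference between the diets, described below, DESeq2 called Gpx4 with 14 libraries. It did not call Gpx4 without the cord libraries or without FOD-CCI replicate 2. Cbs, Gclm and Ftl1, which act in cysteine synthesis, glutathione synthesis and iron storage, had the smallest unadjusted p of the list, with differences of 2.71 ± 1.04, −0.49 ± 0.20 and 0.60 ± 0.25. Ftl1 was highest in FOD-CCI replicate 2 at 1040 CPM, the library with the most red cell RNA.

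Among all genes, the 10 higher and 10 lower with the smallest p in the 5 libraries were taken without regard to function. The gene at the top was Spr, sepiapterin reductase, the last step of tetrahydrobiopterin synthesis. It read 23.3, 34.8 and 35.6 CPM in sham and 37.1, 116, 105 and 91.4 CPM after injury, with all 4 injured libraries above all 3 sham ones, a change of 1.56 ± 0.22 (edgeR adjusted p = 0.15, 11-library adjusted p = 0.00995), and DESeq2 called it with all 7 libraries as well (adjusted p = 0.0437). Tph2, tryptophan hydroxylase, which uses tetrahydrobiopterin to make serotonin, read 5.04, 19.9 and 14.5 CPM in sham and 8, 57.8, 110 and 68.0 CPM after injury (change 2.18 ± 0.37, edgeR 11-library adjusted p = 0.0164). The protease inhibitor gene Serpinb1a and the chloride channel gene Clic1 were nearly level in the 3 injured libraries, at 404 to 429 and 194 to 217 CPM, and changed by 1.28 ± 0.21 and 1.39 ± 0.26. Carhsp1, an RNA-binding protein gene, changed by 0.98 ± 0.18, and the myeloid signaling genes Lyn and Gna15 changed by 2.63 ± 0.48 and 3.82 ± 0.65. All of these were called, with 11-library adjusted p from 0.0133 to 0.026. Ccl2, Socs3 and Cd63 complete the higher 10. On the lower side, Fam196b fell to 2.08, 1.45 and 0.749 CPM in FOD-CCI replicates 2 to 4 from 14.3 and 11.7 CPM in FOD-CT replicates 2 and 3, with the cord libraries at 7.62 and 13.1 CPM (change −3.19 ± 0.50, edgeR 11-library adjusted p = 0.0164). Hapln1, which links hyaluronan to proteoglycans, changed by −2.04 ± 0.38, the orphan receptor gene Gpr22 by −1.83 ± 0.33 and Fads6, of the fatty acid desaturase family, by −1.71 ± 0.34. Ttll7 (tubulin polyglutamylation), Oxr1 (oxidation resistance) and Lrrc49 changed by −1.18 ± 0.22, −0.93 ± 0.18 and −1.09 ± 0.19, and the uncharacterized LOC108351904 by −2.70 ± 0.51. All 10 lower genes were called, with 11-library adjusted p of 0.0311 or lower.

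Whether injury changed genes by a different amount on fish oil than on soybean oil was tested as an interaction. edgeR called 0 of 14484 genes with 14 libraries (0%), with 725 at an unadjusted p under 0.05 (5.01%). Of these, 626 had a larger value for the change on fish oil and 99 a smaller one. Without the cord libraries it called 0 of 14688, with 727 (4.95%), 601 larger and 126 smaller. Without SOD-CT replicate 1 as well, edgeR called 0 of 15177, with 1041 at an unadjusted p under 0.05 where chance would give 759. DESeq2 called 42 genes with 14 libraries (0.29%), all with a positive difference of the change on fish oil minus that on soybean oil. By their symbols, 16 of them encode numbered ribosomal proteins and 11 mitochondrial respiratory complex subunits. Rpsa, which encodes a further ribosomal protein, Gpx4 and the globin genes Hba1 and Hba2 were also among them. In these DESeq2 fits all 42 were higher after injury on fish oil (median 0.53) and lower on soybean oil (median −1.56). DESeq2 called 18 without the cord libraries (0.123%), also all with a positive difference, and no gene was in both sets. Of these 18, 1 was ribosomal and 0 were respiratory complex genes, and Gna15, Tyrobp and C6 were among them. When FOD-CCI replicate 2 was left out of the 14, DESeq2 called 0. Ribosomal protein genes took 4.01% of the counts of that library, against 2.21% to 3.26% in the other FOD-CCI libraries, 2.30% to 2.41% in FOD-CT, 1.70% to 1.87% in SOD-CCI and 1.93% to 3.71% in SOD-CT. The value of 3.71% was that of SOD-CT replicate 1, and the DESeq2 interaction was not run without that library. Among the lists, the injury transcription factors and growth genes had median differences between the diets of 0.29 and 0.14 without the cord libraries, and the macrophage genes 1.38, with 7 of 19 at an unadjusted p under 0.05. For red cell and for neutrophil and marrow genes the same median was 6.89 and 6.77. Without SOD-CT replicate 1 as well, the medians were 0.21 for the injury transcription factors, 0.07 for the growth genes and 1.74 for the macrophage genes. Of the 19 macrophage genes, 12 then had an unadjusted p under 0.05. In that fit the red cell and the neutrophil and marrow medians were 7.2 and 7.06. The injury changes on the 2 diets were thus not shown to differ for any gene by edgeR.

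Right ganglia of 3 FOD-CCI rats give the level without a tied nerve on that side, and are described without a test. Contralateral replicate 1 also carried spinal cord transcripts, with the oligodendrocyte and astrocyte genes at 7.55 log2 CPM and the sensory neuron markers at 6.47 against 9.98 and 9.82 in contralateral replicates 2 and 3. In the latter, Atf3 stood at 10.6 and 10.7 CPM, Gap43 at 232 and 184 CPM and Npy at 2.20 and 6.90 CPM, all within or below the range of the sham libraries. Sprr1a, Reg3b and Il6 had 0 counts in all 3 contralateral libraries. Lyz2 was 287 and 420 CPM there and Cd74 107 and 243 CPM, so that both Lyz2 values and the higher Cd74 value lay above the sham libraries, and all 4 lay below FOD-CCI replicates 2 to 4.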

How the data were processed

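Poly-A RNA of DRG was sequenced, and per the labels the authors used fastp for trimming, HISAT2 for alignment and featureCounts 1.5.0-p3 for counts per gene. The deposited values used here are these raw counts for 39747 genes. Strand setting, multimapping and genome build are not given in the sources used here. Rows without a gene name, 3781 in number (0.956% of counts), were kept. Those that passed the count filter were tested, and all counted toward the library totals behind the CPM. A deposited FPKM table was not used.

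Differences were tested in edgeR 4.0.16 (R 4.3.3, TMM scaling, quasi-likelihood, two-sided) with a mean per left group over 14 libraries, 12 without the spinal cord libraries, or 11 without SOD-CT replicate 1 as well, keeping genes that reached 10 counts in 90% of those libraries. Calls required a p of 0.1 or less after Benjamini-Hochberg adjustment and a 1.2-fold or larger change. The SE was the log2 change divided by the root of the F statistic. DESeq2 1.42.0 (Wald test), other size factors and filters, FOD libraries alone, a replicate block and leaving out each library were alternatives. Scripts were tested on simulated data. CPM are counts divided by the TMM-scaled library size, on the usual CPM scale.

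Named genes were the called members of 29 lists, or up to 3 with the smallest p, members that define a list, the 10 higher and 10 lower genes with the smallest p over all genes, and C3, Arg1, Adcyap1, Scn10a, Piezo2, Trpa1, Oprm1, Ssc5d, Gpx1 and Gpx4. Of the list members 6 were not found in the count table. The samples, members and lists were chosen with earlier results of these data known. Titles number the replicates within each group, and the library names give each replicate of a group a different number, taken here as separate rats. FOD-CCI replicate 1 and contralateral FOD-CCI replicate 1, which both carry spinal cord transcripts, share that number. The p-values measure the spread between these libraries. Injured and sham libraries with the same replicate number deviated together (correlations of 0.42, the spinal cord libraries, 0.23 and 0.18), but other pairs ran from −0.35 to 0.26. The blocked fit is given as an alternative. Results for some genes are not reported here.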

Additional observations from a re-analysis of the deposited data

Results flagged for a closer look

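Among 113 named genes and 29 lists, a library of the 4 FOD-CCI ones stood apart from the other 3 for 14 genes and 2 lists. Chance alone gives about 1 in 20, but that rate does not hold here, since many of the genes were named for their small p in the libraries without replicate 1. For 11 of the genes it was replicate 1, which carries spinal cord transcripts. Its level was above the others for Acsl6 (189 against 51.6 to 62.5 CPM), Gfap (318 against 63.1 to 66.7), Sparcl1 (2670 against 173 to 206) and LOC108351904 (2.43 against 0.737 to 0.852). It was below them for Bdnf (12.0 against 77.7 to 83.2 CPM), Carhsp1 (77.9 against 170 to 174), Clic1 (51.7 against 194 to 217) and Klf6 (42.4 against 133 to 159). The same held for Piezo2 (64.6 against 120 to 135 CPM), Serpinb1a (75.4 against 404 to 429) and Il6r (6.23 against 18.6 to 21.5).

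FOD-CCI replicate 2 was above the other 3 for Rrm2 (30.9 against 2.89 to 3.36 CPM) and Gclm (71.9 against 58.1 to 58.7), and replicate 3 was below them for Cbs (3.85 against 8.19 to 9.29 CPM). Over lists, FOD-CCI replicate 1 stood at 4.35 mean log2 CPM for 10 genes that the study names, against 5.74 to 6, and at 4.87 for spinal cord inhibitory neuron genes, against −3.20 to −2.83.

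Outside the comparison, contralateral FOD-CCI replicate 1 stood at 7.55 mean log2 CPM for spinal cord oligodendrocyte and astrocyte genes, against −1.24 and −0.80 in FOD-CT replicates 2 and 3, and at 4.74 for spinal cord inhibitory neuron genes, against −3.34 and −3.73.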

How the results depend on the processing

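With 7 libraries, edgeR called 0 genes under DESeq2's size factors, both other filters, the FOD libraries alone and a term for the spinal cord libraries, 21 were called by DESeq2, and leaving out each library in turn gave 0 to 43, the 43 without FOD-CCI replicate 1. With 5 libraries, the counts were 8 with no filter other than 1 count, 1 with at least 10 counts in 3 libraries and 426 by DESeq2, and 0 to 526 when each library was left out, with 526 without SOD-CT replicate 1, 89 without FOD-CCI replicate 2 and at most 1 without any other. In alternatives chosen after seeing the data, SOD-CT replicate 1 was left out together with FOD-CT replicate 2 (29 genes), FOD-CT replicate 3 (432), FOD-CCI replicate 2 (789), FOD-CCI replicate 3 (394) or FOD-CCI replicate 4 (65). For the difference between the diets, edgeR called 0 genes in every alternative run, and DESeq2 called 42, or 18 without the cord libraries and 0 without FOD-CCI replicate 2, the last 2 also chosen after seeing the data. The replicate block left all 3 counts at 0. In an alternative also chosen after seeing the data, the block with SOD-CT replicate 1 left out called 1 gene where the fit without the block called 526.

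With 7 libraries 95 of 111 named genes kept their sign in every alternative, and with 5 libraries 106 of 113. The cause of the sign changes was not tested. With 7 libraries, leaving out each library gave −0.48 to 0.26 for Calca, −0.08 to 0.79 for Tac1, −0.46 to 0.35 for Cd55, −0.10 to 0.93 for Mmp2, −0.05 to 0.80 for Col1a1, −0.62 to 0.19 for Scn9a, −0.16 to 0.46 for Trpa1, −0.51 to 0.16 for Trpv1, −0.66 to 0.08 for Ngfr, −0.27 to 0.50 for Ncam1, −2.52 to 2.71 for Gfap, −2.61 to 1.44 for Sparcl1, −1.45 to 2.75 for Cbs, −0.52 to 0.05 for Gclm and −0.01 to 1.70 for Egr1. With the cord term, Gfap stood at 0.78, Ncam1 at 0.14 and Cbs at 1.46, and without both cord libraries Gfap stood at 1.72, Ncam1 at 0.47, Cbs at 2.71, Cd55 at −0.21 and Thy1 at −0.05. Under the replicate block Col1a1 stood at −0.05, Ncam1 at 0.03 and Cbs at 0.43. With 5 libraries, leaving out each gave −0.25 to 0.47 for Tac1, −0.76 to 0.05 for Cd55, −0.06 to 0.20 for Trpa1, −1.61 to 8.01 for Oprm1, −0.25 to 0.28 for Gpx4, −0.21 to 0.04 for Thy1 and −0.16 to 0.20 for Uchl1. There the replicate block gave 0.49 for Oprm1 and 0.07 for Thy1, and 0.46 and 0.10 with SOD-CT replicate 1 left out as well. Without SOD-CT replicate 1 and a further library, Tac1 stood at −0.27, Trpa1 at −0.08 and Gpx4 at −0.27 (FOD-CCI replicate 2), Cd55 at 0.04 and Uchl1 at −0.17 (FOD-CCI replicate 3), Thy1 at 0.04 (FOD-CCI replicate 4), and Oprm1 at 8.07 and Uchl1 at −0.06 (FOD-CT replicate 3).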
